A study of Mus musculus with 10 samples.

Results

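The Trem2 signalling pathway is described here by 6 genes, Trem2, Tyrobp, Hcst, Syk, Plcg2 and Inpp5d, which were found by their symbols among the 53697 genes measured in microglia. Microglia are the resident macrophages of the brain. They were sorted as viable CD45.2+ CD11b+ cells without Ly6C, Ly6G, MHCII or CD38, and their RNA was sequenced from 5 Bhlhe40-/- Bhlhe41-/- double knockout (DKO) and 5 wild-type (WT) libraries. BHLHE40 and BHLHE41 are related basic helix-loop-helix repressors of transcription, and the comparison asks how microglial RNA differs when both are missing. All mice were untreated females on the C57BL/6 background. The DKO mice lacked both genes in all cells, so that other cells of the brain and body also lacked them, and the WT mice were C57BL/6J or Rosa26Stop-YFP. Ages are stated as at least 2 and 6 months and are not assigned to libraries. The labels number the biological replicates 1 to 5 in each genotype without saying that each is its own mouse. The p-values here therefore describe variation among libraries, part of which may be technical.

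TREM2 is a surface receptor of myeloid cells that binds lipids, lipoproteins and cell debris. It has no signalling tail of its own and pairs with the adaptor TYROBP (DAP12), whose tyrosine motif, once phosphorylated by Src family kinases, recruits the kinase SYK. SYK leads to the phospholipase PLCG2, which opens the calcium arm, and to phosphoinositide 3-kinase, which the adaptor HCST (DAP10) can also recruit. INPP5D (SHIP1) is a lipid phosphatase that removes the product of phosphoinositide 3-kinase and so dampens the signal. In microglia the pathway is known for its part in lipid handling, survival and the disease-associated (DAM) state, and variants in human TREM2, PLCG2 and INPP5D are linked to the risk of Alzheimer's disease.

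In GRCm38 with the GENCODE M21 annotation, Trem2 lies on the plus strand at chr17:48346401-48354147 with 4 annotated transcripts, 2 of them coding. Tyrobp (chr7:30413760-30417585, plus strand) and Hcst (chr7:30417712-30419854, minus strand) are neighbours that meet at their 3' ends with 126 bases between them. The library kit did not mark strand, so reads running past either 3' end cannot be assigned by strand. Syk lies at chr13:52583173-52648792, Plcg2 at chr8:117498291-117635142 and Inpp5d at chr1:87620312-87720507, all on the plus strand. Plcg2 has 1 annotated transcript, of 33 exons and 4298 bases, whereas Inpp5d has 11, of which 7 are coding and the longest spans 27 exons and 4937 bases.

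BHLHE40 and BHLHE41 bind the E-box CACGTG, and PU.1, the factor on which macrophage identity rests, binds purine-rich sites such as GAGGAAGT. Promoters reaching from 250 bases before to 50 bases after the start were taken from RefSeq (GRCm38.p6) and searched on both strands. They held 5 of the 6 members with 6 promoters, since Syk has 2 and Tyrobp is not in the table. CACGTG stood in 7.15% of all 32851 promoters and, among the members, in that of Plcg2, 20 bases before the start. GAGGAAGT stood in 3.20% of all promoters and, among the members, in that of Inpp5d, also 20 bases before the start. The longer form TCACGTGA, which holds CACGTG within it, stood in 0.974% of all promoters and in 0 of the members' promoters. The promoters with a match are shown because they carry the letters that the deleted factors and PU.1 are known to bind, 5' to 3' on the plus strand with the match in capitals, from chr8:117498025-117498324 for Plcg2 and chr1:87620062-87620361 for Inpp5d. A match is a description of the letters and not a measured binding site.
Plcg2: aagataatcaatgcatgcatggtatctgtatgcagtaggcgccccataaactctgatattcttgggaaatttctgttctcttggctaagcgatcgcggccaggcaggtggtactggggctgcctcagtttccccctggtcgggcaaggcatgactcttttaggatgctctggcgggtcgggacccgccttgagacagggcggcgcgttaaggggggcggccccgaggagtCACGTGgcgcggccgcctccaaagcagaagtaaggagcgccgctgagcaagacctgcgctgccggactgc
Inpp5d: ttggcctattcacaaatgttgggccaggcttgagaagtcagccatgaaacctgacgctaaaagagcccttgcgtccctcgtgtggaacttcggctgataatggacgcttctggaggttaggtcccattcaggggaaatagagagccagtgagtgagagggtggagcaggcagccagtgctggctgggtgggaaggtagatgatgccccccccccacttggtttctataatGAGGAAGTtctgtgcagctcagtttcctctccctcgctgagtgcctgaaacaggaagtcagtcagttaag

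Estimated counts summed to 22483284 to 26109349 in DKO libraries and 23382114 to 25871082 in WT libraries. The 6 members together took 0.401% to 0.485% of counts in DKO libraries and 0.415% to 0.495% in WT libraries. A set of 10 microglial markers, P2ry12, Tmem119 and Sall1 among them, summed to 65229 to 79216 CPM (estimated counts scaled to a common library total) in DKO and 71573 to 83880 CPM in WT libraries. Of these markers P2ry12 fell, at 7609 ± 974 CPM in DKO and 10766 ± 1335 CPM in WT (log2 fold change -0.50, edgeR adjusted p = 0.0301). The other 9 did not pass, and the log2 fold change was negative for 8 of the 10. Of the markers of other cells, some were at 0 in every library, namely Cd163 and Lyve1 of border-associated macrophages, Chil3 of monocytes, S100a8, S100a9, Mmp8 and Camp of neutrophils, and Cd3g, Nkg7 and Ncr1 of T and NK cells, but others were not. Summed CPM of 7 markers of border-associated macrophages was 7.03 to 27.5 in DKO and 5.18 to 15.8 in WT libraries, with Mrc1 the most abundant (3.78 to 21.7 CPM in DKO, 3.95 to 15.3 CPM in WT), and Pf4 rose (2.10 to 6.21 CPM in DKO, 0 to 0.376 CPM in WT, log2 fold change 4.67, edgeR adjusted p = 5.18e-04). For 6 monocyte markers the sum was 10.5 to 15.0 CPM in DKO and 3.91 to 8.97 CPM in WT libraries, and Cd44 rose (5.46 to 9.90 CPM in DKO, 0.627 to 2.63 CPM in WT, log2 fold change 2.45, edgeR adjusted p = 0.00314). The other 3 tested monocyte markers did not pass in edgeR, and DESeq2 called Plac8 lower. Ighm and Cd79b, which mark B cells, did not pass, at 461 to 764 and 62.8 to 122 CPM in DKO libraries, against 339 to 615 and 45.6 to 93.9 CPM in WT libraries. Astrocyte markers summed to 158 to 210 CPM in DKO and 242 to 397 CPM in WT libraries, and endothelial markers to 11.1 to 18.6 CPM in DKO and 41.1 to 63.5 CPM in WT libraries. Bhlhe40 was scarce in both genotypes (0.0429 to 0.3401 CPM in DKO, 0.144 to 1.05 CPM in WT) and was below the count filter. Bhlhe41 RNA was not lower in DKO libraries (40.7 to 60.5 CPM) than in WT libraries (31.0 to 47.0 CPM), but its transcript length, averaged over the isoforms to which reads were assigned, was 1851 to 2719 bases in DKO and 5878 to 6133 bases in WT libraries. WT 1, WT 5 and DKO 3 held the most mitochondrial RNA, 1.75%, 1.54% and 1.58% of counts, where the other libraries reached at most 1.16%.

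Per length, the adaptor and the receptor were by far the most abundant members. In TPM, a share of transcripts scaled to a fixed total per library, Tyrobp averaged 5294 ± 435 in DKO and 6060 ± 710 in WT microglia (SD, n = 5 each), which placed it at rank 16 of all genes by WT level. Trem2 averaged 2079 ± 128 TPM in DKO and 2915 ± 396 TPM in WT microglia, at rank 37. Inpp5d followed with 408 ± 48.3 TPM in DKO and 584 ± 70.7 TPM in WT microglia, Hcst with 97.0 ± 18.6 and 113 ± 21.95 TPM, Plcg2 with 45.9 ± 8.62 and 61.6 ± 13.9 TPM, and Syk with 20.6 ± 3.77 TPM in DKO and 23.8 ± 5.03 TPM in WT microglia. The order Tyrobp, Trem2, Inpp5d, Hcst, Plcg2, Syk was the same in 10 of 10 libraries. The receptor-adaptor pair thus stood far above the kinase, the phospholipase and the second adaptor in both genotypes. As TPM is such a share, it moves with every other gene, and a single short noncoding gene, Gm23935, took 23.2% to 26.6% of it in every DKO library. In WT its share was 20.3% for WT 3 and 2.85% to 6.60% for the remaining 4. TPM is therefore used for levels between genes within a library, and the genotypes are compared by CPM, the estimated counts scaled by TMM factors.

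**Figure D1:**
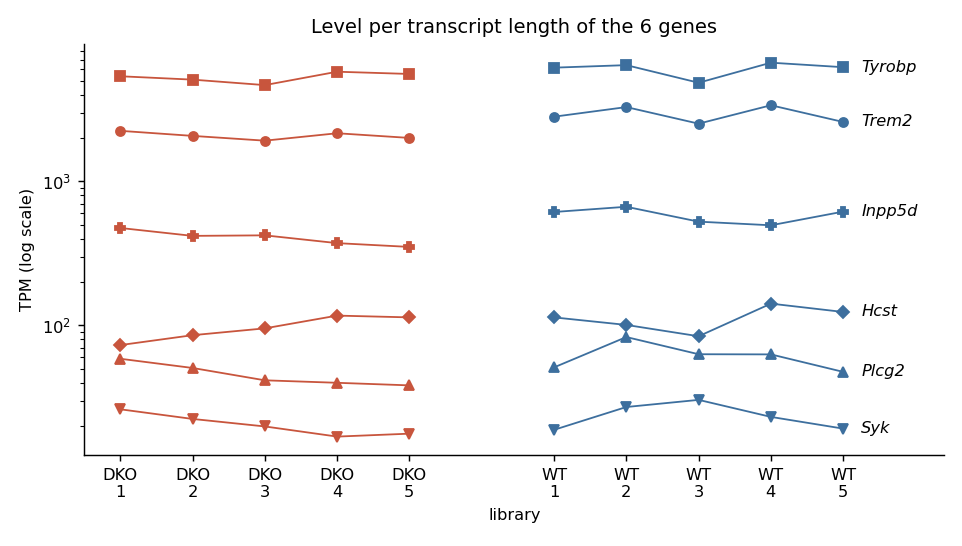
Level of the 6 members in TPM on a log axis, 1 marker per library along the bottom axis, DKO libraries left of WT libraries, where lines join the libraries of a gene and mark no order. The 6 genes do not cross in any library, from Tyrobp near 5294 TPM in DKO and 6060 TPM in WT microglia down to Syk near 20.6 TPM in DKO and 23.8 TPM in WT microglia.

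None of the 6 members was called higher or lower in DKO microglia by a test on counts, which does not show that they were unchanged. With edgeR's quasi-likelihood test and Benjamini-Hochberg adjustment over 13916 genes, 0 of 6 members passed an adjusted p of 0.05, beside 6.19% of all genes tested (604 genes, or 4.34%, higher in DKO and 258 genes, or 1.85%, lower). No member had an unadjusted p under 0.05 in this test, and DESeq2, limma voom, limma voom with quality weights and robust edgeR also called 0 of 6. The log2 fold change was positive for 4 members and negative for 2, with a median of 0.12 over the members and -0.0095 over all genes tested. Under other scaling the split of all calls was less uneven, with 70.1% of calls higher in DKO under TMM, 54.6% under upper-quartile factors and 53.7% with library size only, and the median over all genes moved to -0.11 under upper-quartile factors. On log2(TPM + 1) the members' median was -0.31, beside -0.26 over all genes. In bulk RNA, fewer cells of a type and less RNA per cell cannot be told apart.

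The receptor Trem2 was read at 1488, 1450, 1207, 1656 and 1538 CPM in DKO 1 to DKO 5, against 1363, 1659, 1546, 1885 and 1489 CPM in WT 1 to WT 5. DKO 3 lay below every WT library, and the other 4 DKO libraries lay within the WT range. Trem2 averaged 1468 ± 165 CPM in DKO and 1588 ± 197 CPM in WT microglia (SD, n = 5 each), a fold of 0.924 with a 95% interval of 0.776 to 1.10 (log2 fold change -0.11, SE 0.11, adjusted p = 0.562 by edgeR). Under TMM scaling the interval leaves out a change of Trem2 to less than 0.776 of its WT level and a rise beyond 1.10-fold. These bounds do not carry over to other scaling. The log2 fold change was -0.21 (SE 0.11, adjusted p = 0.211 by edgeR) with upper-quartile factors. It was -0.18 (SE 0.09, adjusted p = 0.213 by edgeR) with library size only.

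The adaptor Tyrobp was read at 1963, 2016, 1651, 2439 and 2388 CPM in DKO 1 to DKO 5, against 1661, 1792, 1655, 2090 and 1932 CPM in WT 1 to WT 5. DKO 4 and DKO 5 lay above every WT library and DKO 3 below every one, so the genotypes overlapped on both sides. Within each genotype the libraries numbered 4 and 5 were the highest. Tyrobp averaged 2091 ± 326 CPM in DKO and 1826 ± 186 CPM in WT microglia, a fold of 1.15 (95% interval 0.948 to 1.38, log2 fold change 0.20, SE 0.12, adjusted p = 0.343 by edgeR). Of the 6 members, Tyrobp had the largest log2 fold change in size.

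Hcst, the adaptor that carries a phosphoinositide 3-kinase motif in place of the SYK-recruiting motif of TYROBP, was scarce by comparison, at 316 to 614 counts in DKO and 334 to 542 counts in WT libraries. It was read at 13.5, 17.0, 16.9, 25.0 and 24.5 CPM in DKO 1 to DKO 5, against 15.6, 14.2, 14.5, 22.3 and 19.7 CPM in WT 1 to WT 5. In both genotypes the libraries numbered 4 and 5 lay above those numbered 1 to 3, as they did for Tyrobp. The fold of Hcst was 1.12 (95% interval 0.819 to 1.54, log2 fold change 0.17, SE 0.20, adjusted p = 0.646 by edgeR). Within the numbers 1 to 3 its log2 fold change was 0.09 (adjusted p = 0.789) and within 4 and 5 it was 0.24 (adjusted p = 0.517). What libraries of those numbers share is not given in the labels, and its part in the levels of Hcst and Tyrobp was not tested.

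**Figure D2:**
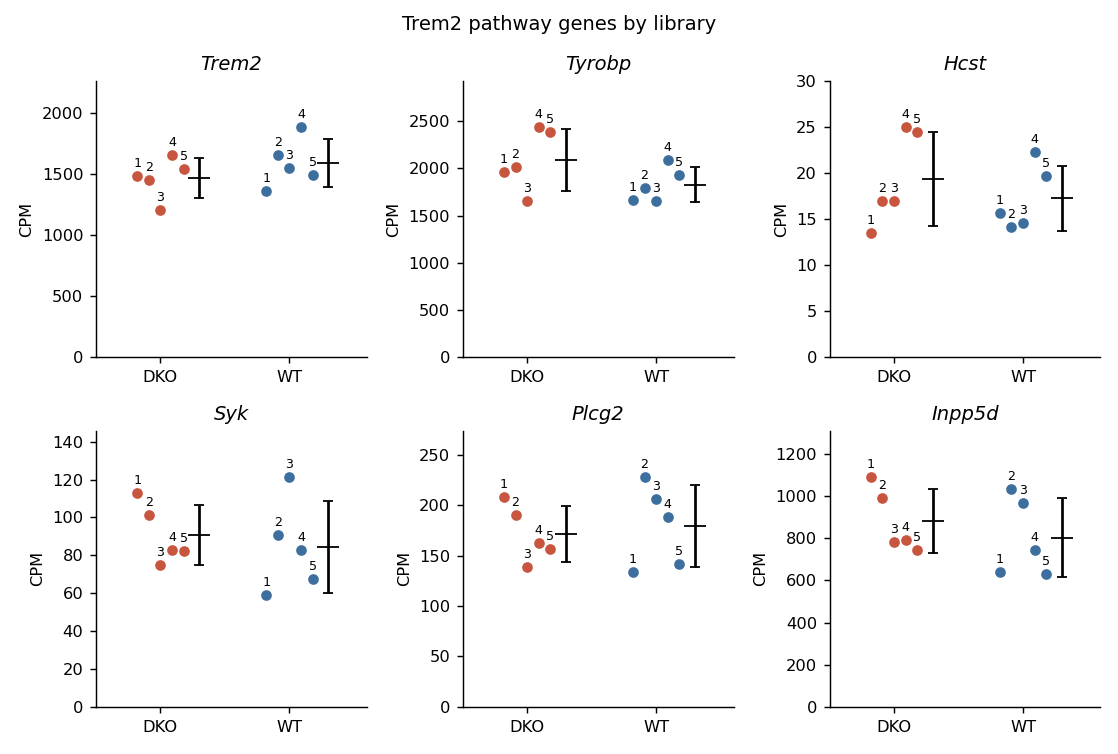
CPM of each member in its own panel with its own axis from 0, 1 point per library labelled by replicate number, DKO left of WT, with bars at the mean and SD of 5 libraries. The genotypes overlap in all 6 panels, and the libraries numbered 4 and 5 are the highest for Tyrobp and Hcst in both genotypes.

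Syk, the kinase that docks on phosphorylated TYROBP, was read at 113, 101, 74.6, 82.5 and 82.1 CPM in DKO 1 to DKO 5, against 59.1, 90.6, 121, 83.0 and 67.7 CPM in WT 1 to WT 5. All DKO libraries lay within the WT range, which was the wider one. Its fold was 1.07 (95% interval 0.795 to 1.45, log2 fold change 0.10, SE 0.19, adjusted p = 0.775 by edgeR). Plcg2, which cleaves a membrane phosphoinositide into calcium-releasing and kinase-activating products, was read at 208, 190, 139, 162 and 157 CPM in DKO 1 to DKO 5, against 134, 228, 206, 188 and 142 CPM in WT 1 to WT 5. Here too all DKO libraries lay within the WT range. Its fold was 0.953 (95% interval 0.733 to 1.24, log2 fold change -0.07, SE 0.16, adjusted p = 0.831 by edgeR).

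Inpp5d, the phosphatase that opposes phosphoinositide 3-kinase, was read at 1092, 989, 783, 794 and 743 CPM in DKO 1 to DKO 5, against 640, 1034, 969, 745 and 630 CPM in WT 1 to WT 5. DKO 1 lay above every WT library, and the other 4 DKO libraries lay within the WT range. Its fold was 1.10 (95% interval 0.840 to 1.43, log2 fold change 0.13, SE 0.17, adjusted p = 0.671 by edgeR). The direction of Inpp5d depended on the libraries used and on how transcript length was treated. Over the settings tried its log2 fold change ran from -0.52 to 0.24 and was negative in 4 of 29. Without WT 1 and WT 5 together it was -0.06 (adjusted p = 0.901), and with single libraries left out it was 0.04 (without DKO 1) to 0.24 (without WT 2). It was -0.17 (adjusted p = 0.281) with effective length as an offset and -0.52 (adjusted p = 0.00980) on log2(TPM + 1), where it was past the threshold with the opposite sign. With Gm23935 left out of the TPM it was -0.22 (adjusted p = 0.231). Trem2 also passed on log2(TPM + 1), at -0.48 (adjusted p = 0.00928), and not with Gm23935 left out, at -0.18 (adjusted p = 0.250).

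**Figure D3:**
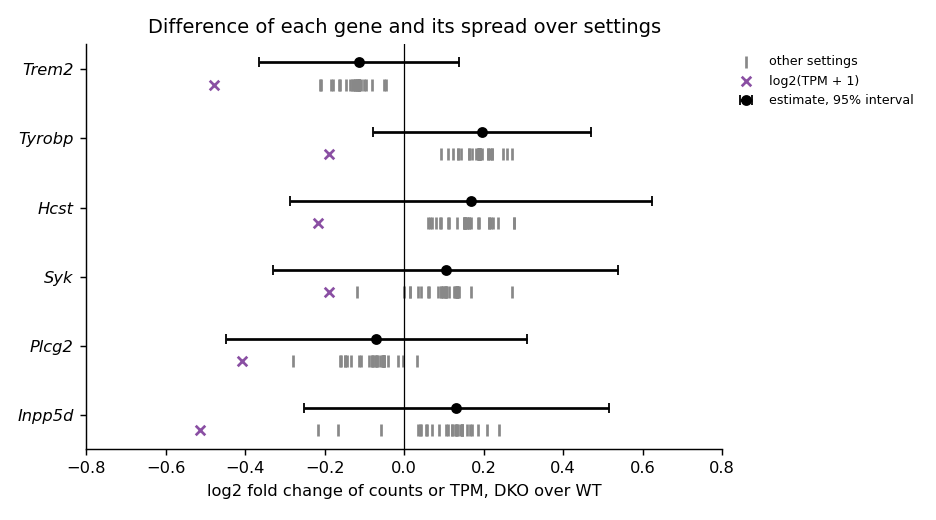
Log2 fold change of each member, DKO over WT, with its 95% interval in black, grey ticks for the other settings and a purple cross for log2(TPM + 1). All 6 intervals cross 0, and the crosses of Trem2 (-0.48) and Inpp5d (-0.52) lie apart from their estimates.

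Over the count filters, scalings, tests and left-out libraries tried, 29 settings in all, Trem2 kept a negative log2 fold change throughout, between -0.48 and -0.04. The lowest values of Tyrobp, Hcst and Syk were those on log2(TPM + 1). Tyrobp ran from -0.19 to 0.27 with adjusted p of 0.124 to 0.642, Hcst from -0.22 to 0.28, Syk from -0.19 to 0.27 and Plcg2 from -0.41 to 0.03, and none of these 4 passed in any setting. Before adjustment Tyrobp had an edgeR p of 0.0462 with the replicate block and 0.0294 without DKO 3. With a term that parts the numbers 1 to 3 from 4 and 5 its unadjusted edgeR p was 0.0253. Plcg2 had an unadjusted limma p of 0.0346 on log2(TPM + 1). Leaving out each of the 10 libraries in turn gave 0 calls for any member. A two-sided exact permutation test of the mean log2 CPM, 5 against 5, gave p = 0.31 for Trem2, 0.19 for Tyrobp, 0.492 for Hcst, 0.524 for Syk, 0.786 for Plcg2 and 0.444 for Inpp5d, before adjustment over 6 tests, where the smallest possible p is 0.00794. By the same count, 0 of 6 members had CPM that did not overlap between genotypes, beside 7.62% of all genes tested.

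The ratio of adaptor to receptor within a library does not depend on the scaling between libraries. Tyrobp TPM over Trem2 TPM was 2.39, 2.46, 2.43, 2.67 and 2.78 in DKO 1 to DKO 5 (2.55 ± 0.170), against 2.19, 1.96, 1.92, 1.98 and 2.40 in WT 1 to WT 5 (2.09 ± 0.204). The other 4 WT libraries lay below all DKO libraries and WT 5 lay just above DKO 1. The ratio was looked at among 4 such ratios after the members' values were seen and is given without a test. Tyrobp over Hcst was 56.0 ± 10.8 in DKO and 54.5 ± 6.47 in WT libraries. Inpp5d over Syk was 19.97 ± 1.65 in DKO and 25.6 ± 6.68 in WT libraries, and Plcg2 over Syk was 2.22 ± 0.103 in DKO and 2.61 ± 0.364 in WT libraries, with the DKO libraries the narrower in both. As TPM is per length, these ratios also move with the transcript length assigned to each gene. Inpp5d over Syk was highest in WT 1 (32.5) and WT 5 (32.1), where the assigned length of Inpp5d was lowest (1804 and 1590 bases). The part of length in this ratio was not tested.

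The transcript length behind the counts of Inpp5d also varied, with 2805, 2724, 2435, 2317 and 2289 bases in DKO 1 to DKO 5 against 1804, 2477, 2473, 2223 and 1590 bases in WT 1 to WT 5. The genotypes overlapped, and WT 5 and WT 1 had the lowest lengths. The lengths of Trem2 stayed within 1092 to 1097 bases, near its coding transcripts of 1088 and 1056 bases and far from its retained-intron transcript of 4784 bases. Those of Tyrobp stayed within 583 to 589 bases in all libraries, and that of Plcg2 is fixed by its single transcript. Of the 5 members whose length varied, 0 had lengths that did not overlap between genotypes, beside 1.38% of the 10499 genes with varying length.

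Across the 10 libraries Syk, Plcg2 and Inpp5d varied together, as did Tyrobp and Hcst, while Trem2 belonged to neither group clearly. Syk, Plcg2 and Inpp5d correlated with each other at a Pearson r of 0.84 to 0.89 in log2 CPM. Tyrobp and Hcst correlated at 0.80, with -0.57 (Hcst and Inpp5d) to 0.04 (Tyrobp and Syk) between these adaptors and the other 3. Trem2 correlated with Plcg2 at 0.55, with Tyrobp at 0.52, with Hcst at 0.36, with Syk at 0.27 and with Inpp5d at 0.13. Once the genotype means were taken out, Trem2 followed Tyrobp most closely (0.83), before Plcg2 (0.55) and Hcst (0.49). These 15 correlations are a description over 10 libraries that share depth and RNA quality. Tyrobp and Hcst were both highest in the libraries numbered 4 and 5 of each genotype. WT 1 and WT 5 were the lowest of the WT libraries for Syk, Plcg2 and Inpp5d, and they were also the WT libraries with the most mitochondrial RNA. In DKO microglia, DKO 3, with the most mitochondrial RNA, was the lowest for Trem2, Tyrobp, Syk and Plcg2. The part of RNA quality in these values was not tested. Without WT 1 and WT 5 the number of members called was also 0.

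**Figure D4:**
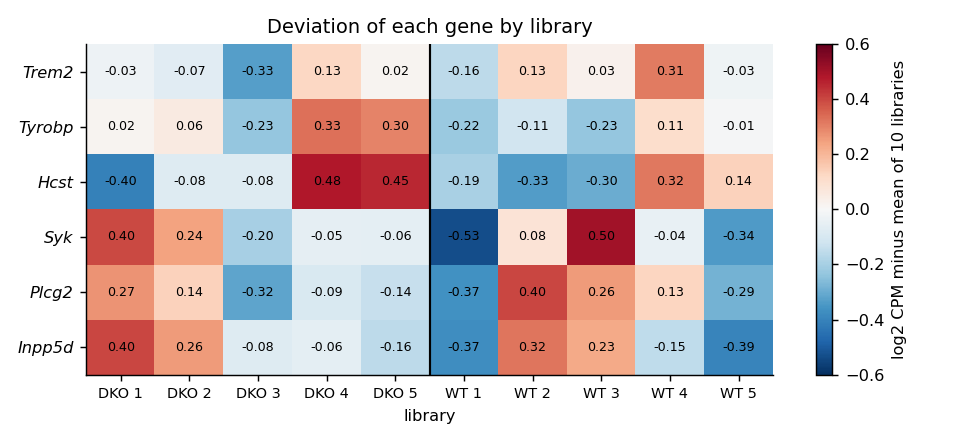
Log2 CPM of each member in each library relative to that member's mean over the 10 libraries, DKO libraries left of WT libraries, given as a number and on a colour scale centred at 0. Syk, Plcg2 and Inpp5d are low together in WT 1 and WT 5, while Tyrobp and Hcst are high together in DKO 4 and DKO 5.

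The genes whose log2 CPM followed each member most closely over the 10 libraries were sought among 4220 genes whose mean log2 CPM reached 5. For Trem2 they were Sparc (r = 0.97), Mrpl48 (0.95) and Spag7 (0.94), and for Tyrobp Ncaph2 (0.94), Psmd8 (0.93) and Vkorc1 (0.93). Hcst was followed by Zfp422 (0.97), Psmb3 (0.96) and Ndufa4 (0.96). For Syk they were Gtf2i (0.95), Eloa (0.93) and Phrf1 (0.93), for Plcg2 Sall1 (0.97), Eloa (0.97) and Fkbp15 (0.96), and for Inpp5d Slc38a10 (0.99), Tfe3 (0.98) and Phrf1 (0.98). Sparc and Sall1 are microglial marker genes. Eloa stood among the top 3 of both Syk and Plcg2, and Phrf1 among those of both Syk and Inpp5d.

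Around the members, 136 further genes of the pathway were listed by role, of which 110 were tested, 11 rose, 3 fell and 96 did not pass (12.7% called, beside 6.19% of all genes tested). Their median log2 fold change was 0.12, and on log2(TPM + 1) it was -0.21. The lists were drawn up with results of these data known, so the count is a description. Where an adjusted p is given for a listed gene it is from edgeR over all genes tested.

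At the receptor level, 0 of 2 tested TREM family genes passed by edgeR, DESeq2 or voom, and 0 had an unadjusted p under 0.05 in edgeR. Treml2 had a log2 fold change of -0.55 (adjusted p = 0.235) and passed, as lower, only on log2(TPM + 1). Among reported TREM2 ligands, 1 of 2 tested rose, Lgals3, the sugar-binding galectin-3, at 5.04 ± 1.45 CPM in DKO and 1.42 ± 0.460 CPM in WT microglia (log2 fold change 1.82, SE 0.30, adjusted p = 0.00431). Apoe, a lipoprotein that TREM2 binds, averaged 36.1 ± 20.4 CPM in DKO and 65.6 ± 71.6 CPM in WT microglia (log2 fold change -0.86, adjusted p = 0.539), a spread too wide to show a difference. Of 9 genes of TREM2 shedding and gamma-secretase cleavage, 0 passed in edgeR and 2 had an unadjusted p under 0.05, while DESeq2, and edgeR with upper-quartile factors or library size only, called Adam10 and Aph1c lower, and voom with quality weights called Adam10 lower. Adam10, a protease that sheds TREM2, was read at 460 ± 20.6 CPM in DKO and 565 ± 58.5 CPM in WT microglia (log2 fold change -0.30, SE 0.09, adjusted p = 0.0635), and it passed without WT 4 (adjusted p = 0.0371) and in 7 of 19 other settings, the random effect of the replicate number and the term for its sets among them.

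Among 7 tested receptors that also pair with TYROBP or HCST, 2 rose and 1 fell. Cd300lb, an activating lipid-binding receptor, rose to 11.5 ± 1.23 CPM in DKO, against 2.45 ± 0.942 CPM in WT microglia (log2 fold change 2.23, SE 0.24, adjusted p = 2.41e-04). Its relative Cd300ld rose to 1.76 ± 0.574 CPM in DKO, against 0.640 ± 0.194 CPM in WT microglia (log2 fold change 1.45, SE 0.30, adjusted p = 0.0165). The call of Cd300ld was lost with the replicate block and within the numbers 1 to 3 or 4 and 5 alone. Klrd1 fell to 1.41 ± 0.614 CPM in DKO, against 5.34 ± 2.49 CPM in WT microglia (log2 fold change -1.92, SE 0.38, adjusted p = 0.0141). Klrd1 is a receptor chain of NK cells, and the summed CPM of 9 T and NK cell markers was 9.94 to 18.4 in DKO and 25.0 to 48.0 in WT libraries, with Cd3g, Nkg7 and Ncr1 at 0 throughout and Il7r making up most of the sum (12.6 ± 3.79 CPM in DKO, 34.1 ± 8.44 CPM in WT). The part of such cells in the level of Klrd1 was not tested. Fcer1g, an adaptor with the same kind of motif as TYROBP, did not pass (1390 ± 45.3 CPM in DKO, 1196 ± 131 CPM in WT, adjusted p = 0.164).

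Of 9 tested Src family kinases and regulators, Fgr rose and Src fell. Fgr, a myeloid Src family kinase, rose to 17.0 ± 1.47 CPM in DKO, against 8.79 ± 2.40 CPM in WT microglia (log2 fold change 0.95, SE 0.18, adjusted p = 0.0127). Src fell to 2.70 ± 0.389 CPM in DKO, against 5.37 ± 1.24 CPM in WT microglia (log2 fold change -0.99, SE 0.20, adjusted p = 0.0140). The call of Src was lost with the replicate block and within the numbers 1 to 3 or 4 and 5 alone. Among the Syk and Tec family kinases 0 of 2 tested passed in edgeR, although both had an unadjusted p under 0.05. DESeq2, voom, voom with quality weights and robust edgeR also called 0 of them, while edgeR called Tec lower with upper-quartile factors and Btk lower with library size only, and log2(TPM + 1) called both lower. Btk, which acts beside SYK on phospholipase C, was read at 77.5 to 93.6 CPM in DKO and 95.3 to 107 CPM in WT libraries without overlap (log2 fold change -0.21, adjusted p = 0.134).

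Of 12 tested scaffolds next to SYK, Lat2 alone passed in edgeR. Lat2 (NTAL, also LAB), a membrane scaffold that Syk family kinases phosphorylate, rose to 395 ± 49.97 CPM in DKO, against 201 ± 35.8 CPM in WT microglia (log2 fold change 0.98, SE 0.14, adjusted p = 0.00159), and it was called in every leave-one-out fit. Its DKO libraries (338 to 449 CPM) lay wholly above its WT libraries (157 to 230 CPM). Lat2 overlaps the antisense gene Rfc2, whose mean count of 1221 was below the 7178 of Lat2, and the unstranded reads of the shared bases cannot be told apart.

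In the phospholipase C and calcium arm, 1 of 23 tested genes rose by edgeR, while DESeq2 and limma voom each called 5 of 23 higher and voom with quality weights called 3. Orai1, the pore of the store-operated calcium channel, rose to 53.1 ± 23.9 CPM in DKO, against 13.9 ± 8.62 CPM in WT microglia (log2 fold change 1.93, SE 0.41, adjusted p = 0.0206). The genotypes overlapped for Orai1, as WT 3 at 28.7 CPM lay above DKO 3 at 28.2 CPM. Its call was lost without DKO 1, DKO 2, WT 2, WT 4 or WT 5 (adjusted p 0.0516 to 0.0571). It was also lost with the replicate block, within the numbers 1 to 3 or 4 and 5 alone, and without WT 1 and WT 5 together. In the phosphoinositide 3-kinase and Akt arm, 1 of 16 tested genes rose. Gsk3b, a kinase that Akt inhibits, rose to 47.7 ± 11.6 CPM in DKO, against 24.6 ± 8.56 CPM in WT microglia (log2 fold change 0.95, SE 0.23, adjusted p = 0.0334), and the call was lost without DKO 1, DKO 2, DKO 5, WT 1, WT 2, WT 4 or WT 5 (adjusted p 0.0683 to 0.0889). It was also lost with the replicate block, within the numbers 1 to 3 or 4 and 5 alone, and without WT 1 and WT 5 together. WT 3, at 39.6 CPM, lay within the DKO range of Gsk3b (33.9 to 62.2 CPM). Among the phosphatases and other inhibitors that share a role with Inpp5d, 1 of 11 tested rose. Dok2, an adaptor that restrains tyrosine kinase signals, rose to 1.95 ± 0.378 CPM in DKO, against 0.558 ± 0.354 CPM in WT microglia (log2 fold change 1.79, SE 0.41, adjusted p = 0.0273). The call of Dok2 was lost without DKO 1, DKO 2, DKO 4, DKO 5, WT 1, WT 2 or WT 4 (adjusted p 0.0502 to 0.0680). It was also lost with the replicate block and within the numbers 1 to 3 or 4 and 5 alone. Dok2 also overlaps the antisense gene Xpo7, which had a mean count of 784 against 30.1 for Dok2, so its reads are uncertain.

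Downstream, of 11 tested DAM genes whose induction is known to need TREM2, 3 rose and 1 fell. The log2 fold change was positive for 9 of them and negative for 2. Cd9, a tetraspanin of the DAM state, rose to 2955 ± 106 CPM in DKO, against 1890 ± 75.9 CPM in WT microglia (log2 fold change 0.65, SE 0.07, adjusted p = 2.49e-04). Clec7a, a receptor for fungal glucans that signals through SYK, rose to 65.5 ± 15.9 CPM in DKO, against 10.31 ± 7.93 CPM in WT microglia (log2 fold change 2.67, SE 0.58, adjusted p = 0.0223), and the call was lost without DKO 1 or DKO 2 (adjusted p 0.0507 to 0.0594). Ctsl, a lysosomal protease, rose to 1836 ± 155 CPM in DKO, against 1400 ± 125 CPM in WT microglia (log2 fold change 0.39, SE 0.09, adjusted p = 0.0282), and the call was lost without DKO 1, DKO 4, DKO 5, WT 2 or WT 5 (adjusted p 0.0568 to 0.0695). It was also lost with upper-quartile factors, with the replicate block, and on log2(TPM + 1) with or without Gm23935. Within the numbers 1 to 3 or 4 and 5 alone, and without WT 1 and WT 5 together, Ctsl was not called either. Spp1, the secreted osteopontin, fell to 0.349 ± 0.153 CPM in DKO, against 2.00 ± 1.09 CPM in WT microglia (log2 fold change -2.50, SE 0.49, adjusted p = 0.0136). Spp1 lay near the floor, with a mean count of 29.9. It was called in every leave-one-out fit. The call was lost with voom with quality weights, within the numbers 1 to 3 or 4 and 5 alone, and without WT 1 and WT 5. Of 6 DAM genes that are known to be induced without TREM2, 0 passed in edgeR and 3 had an unadjusted p under 0.05, while DESeq2 and voom with quality weights each called Fth1 as higher. The median log2 fold change was 0.39 over the DAM genes that need TREM2 and 0.48 over those that do not, against -0.04 and 0.14 on log2(TPM + 1), and 0.17 and 0.44 on that scale without Gm23935. Pf4 and Cd44, 1 marker each of border-associated macrophages and monocytes given above, were also higher in DKO libraries. The other tested markers of these 2 lists did not pass in edgeR, and DESeq2 called Plac8 of the monocyte list lower. The part of such cells in the values of DAM genes and receptors was not tested.

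**Figure D5:**
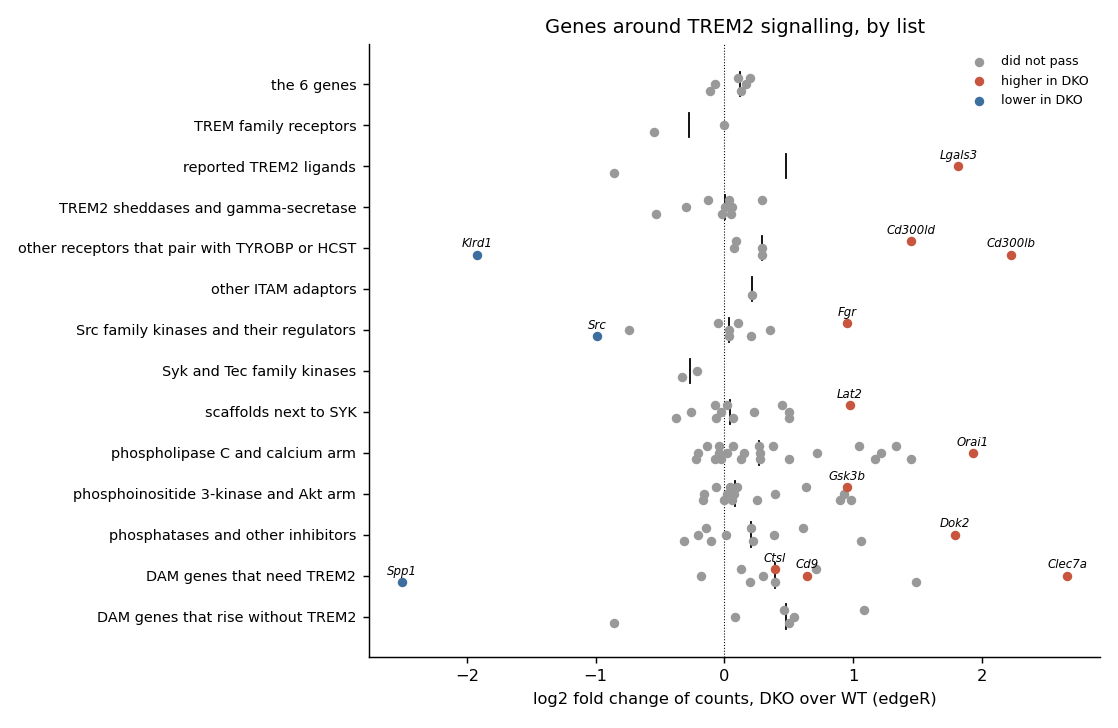
Log2 fold change, DKO over WT, of the tested genes of each pathway list, 1 point per gene with those that passed coloured and named, and a bar at each list's median. The members lie close to 0 with a median of 0.12, while Cd300lb (2.23), Clec7a (2.67) and Spp1 (-2.50) lie far out.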

How the data were processed

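RNA of sorted microglia was sequenced in 5 DKO and 5 WT libraries. Per the labels, the authors used FastQC 0.11.8, cutadapt 2.6 and STAR 2.5.3a with the mm10 build, and how the gene values were estimated is not given here. RNA integrity was not assessed. The deposited files give, per gene, an estimated count without normalization, and a TPM that the authors' tool scaled to a fixed total per library, with a length and an effective length.

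Estimated counts were rounded, filtered with filterByExpr (minimum count 10) and compared with the quasi-likelihood test of edgeR 4.0.16 in R 4.3.3 after TMM scaling, genotype being the only term (biological coefficient of variation 28.0%). Adjustment ran over 13916 genes at 0.05. Intervals of folds used a t value with 8 degrees of freedom. The test was checked on simulated data. The alternatives tried were other scaling (RLE, upper-quartile, library size only), no filter or a CPM of at least 1 or 10 in 5 libraries, robust edgeR, DESeq2 1.42.0, limma 3.58.1 (voom, voom with quality weights, log2(TPM + 1) with and without Gm23935), an offset for effective length, a block or a random effect for the replicate number, a term that parts the numbers 1 to 3 from 4 and 5, each of these sets by itself, omission of WT 1 with WT 5, and omission of each library.

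The members and lists were chosen with earlier results of these data known. Named genes are the 6 members, up to 4 changed genes with the smallest adjusted p per list (or some of the 2 most abundant where none changed), the 3 genes most like each member, changed markers that move with a result and the targeted genes. Adam10, Apoe, Aph1c, Btk, Fth1, Tec, Treml2, Mrc1, Ighm, Cd79b and the calcium genes of the last section were in part named after their values were seen. The same holds for Slc1a3 and Pecam1.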

Additional observations from a re-analysis of the deposited data

Results flagged for a closer look

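Of 58 groups of 5 libraries examined (29 genes in 2 genotypes), 3 held a library far from the other 4, where chance gives about 5% of groups. None was a value of the 6 members. Fcer1g, the adaptor next to TYROBP, was read at 1313 CPM in DKO 3, while the other 4 DKO libraries lay between 1392 and 1424 CPM. Ncstn, a subunit of gamma-secretase, was read at 561 CPM in WT 5, against 464 to 479 CPM in the other 4 WT libraries. Gsk3b, the kinase that Akt inhibits, was read at 39.6 CPM in WT 3, against 18.1 to 22.5 CPM in the other 4 WT libraries.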

How the results depend on the processing

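The count of genes called was 862. It was 559 with a CPM of at least 10 in 5 libraries, 1629 with DESeq2, 4946 on log2(TPM + 1), 1305 with the replicate number as a random effect, 1431 with a term that parts the numbers 1 to 3 from 4 and 5, 298 and 57 within either set alone, 449 without WT 1 and WT 5, and 402 (without DKO 1) to 1618 (without WT 3) when 1 library was left out. Pathway genes higher in DKO numbered 11, and 7 at a CPM of at least 10, 17 with DESeq2, 18 with the random effect, 6 and 1 within either set, and 6 to 18 when 1 library was left out. Pathway genes lower in DKO numbered 3, and 6 with upper-quartile factors or library size only, 5 with DESeq2 or the set term, 34 on log2(TPM + 1), and 0 by edgeR at a CPM of at least 10 or within either set, where 5, 8 and 6 had an unadjusted p under 0.05. The sets and the high filter hold fewer libraries or genes, and otherwise the cause was not tested. On log2(TPM + 1), 2 members were called in place of 0, Trem2 at -0.48 and Inpp5d at -0.52, and Ncstn was -0.32 (0.05 by edgeR). That scale moved the median of all genes to -0.26, and 11.97% of its calls were higher in DKO, against 53.4% without Gm23935, 59.8% with the set term and 82.5% in the numbers 4 and 5.

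Deviations from the genotype means correlated between same-numbered libraries at -0.096, 0.064, -0.235, 0.199 and 0.105 for the numbers 1 to 5, and 1 of 5 DKO libraries matched its own number best. These 5 values are too few to settle whether the numbers pair the samples, which the labels do not say. With the replicate block 547 genes and 0 members were called, and Tyrobp had an adjusted p of 0.203. At 316 to 614 counts per library Hcst is the member with the least depth, and the widest interval of a fold, 0.819 to 1.54, is also its own.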

Other observations

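In the calcium arm several genes lay close to the threshold, and they are named after their values were seen. Itpr3, a receptor that releases stored calcium, averaged 9.57 ± 2.61 CPM in DKO and 3.802 ± 2.20 CPM in WT microglia (log2 fold change 1.33, edgeR adjusted p = 0.0558). Nfatc3, a transcription factor that calcineurin activates, averaged 31.1 ± 9.48 CPM in DKO and 15.1 ± 7.68 CPM in WT microglia (log2 fold change 1.04, edgeR adjusted p = 0.0785). Malt1, which links protein kinase C to NF-kB, averaged 20.3 ± 2.24 CPM in DKO and 9.03 ± 7.11 CPM in WT microglia (log2 fold change 1.17, edgeR adjusted p = 0.1001). DESeq2 and limma voom called all 3 of these as higher, and the edgeR fit behind these adjusted p-values called none of them. With upper-quartile factors edgeR called Itpr3 higher, and with the replicate block it called Nfatc3 higher. Nfatc2, a relative of Nfatc3, averaged 81.7 ± 23.6 CPM in DKO and 35.1 ± 22.2 CPM in WT microglia (log2 fold change 1.22, edgeR adjusted p = 0.114) and was called by DESeq2. Ppp3r1, the regulatory subunit of calcineurin, averaged 215 ± 16.1 CPM in DKO and 78.6 ± 81.2 CPM in WT microglia (log2 fold change 1.45, edgeR adjusted p = 0.129). Both voom fits and log2(TPM + 1) called it higher, and WT 3, at 219 CPM, lay within its DKO range of 201 to 234 CPM.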
